A study of Mus musculus with 6 samples.

Results

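Around Gata6 on mouse chromosome 18, 14 regions of accessible chromatin were found in liver, of 75169 called in at least 1 of 6 libraries. The strongest of the 14 after fasting was 7.71 times as dense in fasted as in fed livers. The regions are those that overlap the 300 kb from 11000000 to 11300000 (mm9), which hold Gata6 and its downstream flank. They were obtained by merging the hotspots of all libraries wherever these overlapped by at least 1 bp. A hotspot is a stretch with a local excess of DNase I cuts, and its maximum tag density is the height it reaches. The window was selected on the maximum tag density itself, since it holds the region whose density differed most upwards between fasted and fed livers among the 37044 regions called in all 6 libraries, so every difference between fasted and fed livers given here is a description of that choice and is not put forward as a test.

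The mice were of the C57BL/6 strain. Of the 6 libraries 3 are from animals with free access to food and 3 from animals without food for 24 h, and livers were taken at the hour when the lights came on. All mice were kept under the same light-dark cycle. The labels give no genotype beyond the strain, no sex and no age, and they do not say whether each library came from a separate animal, so the spread between libraries may be partly technical. Whole liver nuclei were digested with 40 U/ml DNase I, so a change of accessibility per cell cannot be told apart from a change in the mix of cells. Positions of genes in mm9 were not used here, so neither the tissue's marker genes nor exons and introns could be set against the regions.

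Gata6 (gene ID 14465) encodes a zinc-finger transcription factor that binds the GATA sequence. It acts in the endoderm of the embryo, from which the liver bud forms, and in the developing heart. In RefSeq's gene order it follows Gata6os and precedes Gm35918, both long noncoding RNA genes. Its nearest protein-coding neighbours are Mib1, a ubiquitin ligase of the Notch pathway, and Rbbp8, a DNA repair factor. Accessible regions in the flank of such a gene can be enhancers, which act over long distances and not always on the nearest gene. Which gene the regions described here act on was not tested.

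The libraries held 49682 to 63476 hotspots each, of which 9 to 14 lay in the window. Maximum densities came in whole multiples of a step that differs between libraries. If 1 step is 1 tag, fasted replicate 2 was the deepest library, at 1.90 times the depth of fed replicate 2, followed by fed replicate 3 at 1.64 times. Fed replicates 1, 2 and 3 had 11, 10 and 10 hotspots in the window, and fasted replicates 1, 2 and 3 had 9, 14 and 9. The hotspots covered 10449 to 12468 bp of it in fed and 11243 to 16142 bp in fasted libraries, where the highest figure is that of fasted replicate 2.

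Of the 14 regions, 8 were called in all 6 libraries and could be compared by density. Of these, 4 rose in fasted livers (limma, adjusted p under 0.05), where 7.89% of the 37044 regions shared by all libraries did. None of the 8 fell at an adjusted p under 0.05, where 7.84% of all shared regions did. At an unadjusted p under 0.05 none fell either (0 of 8), and the share of all shared regions at that threshold is not given here. In the same 4 all fasted libraries were above all fed ones, as at 16.8% of all shared regions. The median log2 fold change was 0.51 over the 8 regions, 0.35 without the strongest, and 0.03 over all shared regions. For the fit, the check of overlap and the log2 fold changes, log2(density + 1) was centred on each library's median over the shared regions. Log2 fold changes are fasted minus fed on that scale. The densities themselves, with their group means, ratios and sums, are given without centring. Since the window was chosen for a rise, nothing follows from the excess of rises over falls.

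**Figure D1:**
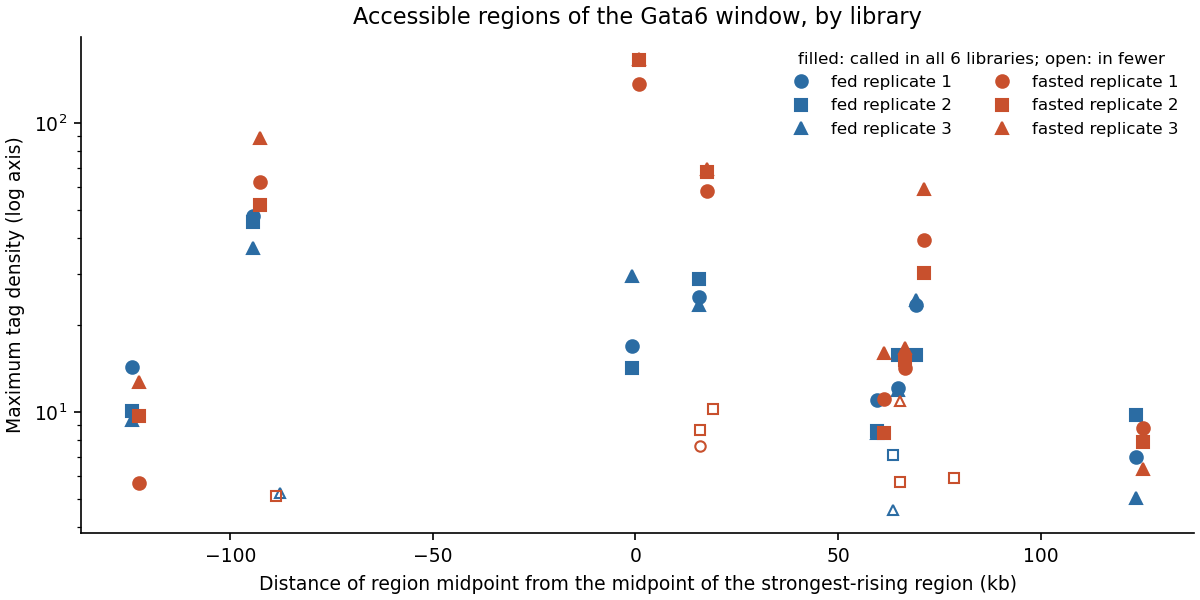
Maximum tag density (log axis) of the 14 regions in each library, against the distance of the region's midpoint from that of the strongest-rising region (kb), with fed libraries in blue and fasted in orange, shifted slightly apart. The fasted points stand clear of the fed ones at 4 of the 8 regions called in all libraries, and the open symbols, regions called in fewer libraries, lie at densities of 4.58 to 10.9.

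The strongest-rising region spans 1599 bp (chromosome 18, 11143932 to 11145530, mm9). Its maximum tag density was 16.9, 14.2 and 29.5 in fed replicates 1, 2 and 3, and 136, 166 and 166 in fasted replicates 1, 2 and 3. Every fasted library stood far above every fed one, while fed replicate 3 stood apart from the other fed libraries. The group means were 20.2 ± 8.16 and 156 ± 17.2 (SD, n = 3 each), and the log2 fold change was 3.02 (SE 0.21), the highest of 37044 shared regions. The region next in that order reached 2.58.

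In fed livers the site was of middling height. Ranked among all shared regions of the same library, its density lay at percentile 33.3, 28.4 and 59.1 in fed replicates 1, 2 and 3. In fasted replicates 1, 2 and 3 it lay at percentile 97.1, 98.7 and 98.0. The site was called in every fed library, so it was accessible without fasting as well. Such calls were required of every region compared by density, so they do not set this site apart.

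The values rest on unequal numbers of tags. In tags, if 1 step is 1 tag, the region reached 46, 38 and 129 in fed and 480, 840 and 549 in fasted libraries. Poisson 95% intervals were formed as if each height, a maximum over the hotspot, were a single count. They cover counting error only, and that approximately. As a density they ran from 12.4 to 22.6 in fed replicate 1, from 10.1 to 19.5 in fed replicate 2 and from 24.6 to 35.1 in fed replicate 3. The interval of fed replicate 3 lay above those of the other fed libraries. It is also the deepest fed library, and the part of depth in this was not tested. Without it the log2 fold change was 3.33.

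**Figure D2:**
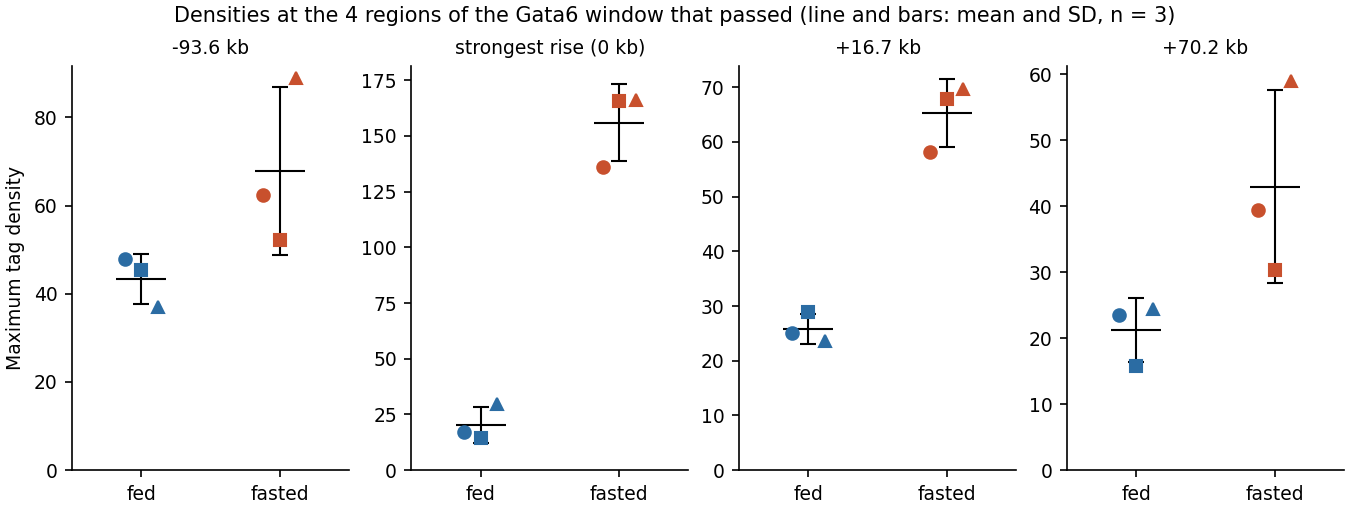
Maximum tag density at the 4 regions that rose, in fed and fasted libraries, headed by the distance from the strongest-rising region; circles, squares and triangles are replicates 1, 2 and 3, and the lines with bars are the mean and SD (n = 3). The fasted libraries lie at 136 to 166 in the strongest-rising region, against 14.2 to 29.5 in fed libraries, and the groups are closest in the leftmost panel.

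Hotspots at this site also covered more DNA in fasted livers. The called stretch was 728, 814 and 971 bp long in fed replicates 1, 2 and 3, and 1275, 1599 and 1249 bp in fasted replicates 1, 2 and 3. All 6 hotspots shared a core of 699 bp (11144420 to 11145118), and their midpoints lay within 189 bp of each other. The stretch was extended on both sides in fasted libraries, by at least 193 bp at its higher end and 29 bp at its lower end beyond any fed library. Lengths and heights moved together here, and the part of height in length was not tested. Of the 7 regions of the window with a single hotspot in each library, 2 had longer hotspots in all fasted than in all fed libraries (this region and its neighbour, described next), where 9.77% of such shared regions did. In 1 the fasted hotspots were all shorter (11209880 to 11210689), where 6.43% of such shared regions were.

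The nearest region called in all libraries lies 16.7 kb away, midpoint to midpoint, at higher coordinates (11160689 to 11162158). It stood at 25.0, 28.9 and 23.6 in fed replicates 1, 2 and 3, and at 58.2, 67.9 and 69.6 in fasted replicates 1, 2 and 3. The groups were well apart and the libraries of each group close together. The means were 25.8 ± 2.73 and 65.2 ± 6.18 (SD, n = 3 each), with a log2 fold change of 1.38 (SE 0.18), number 199 among all shared regions. Its called stretch was 724 to 810 bp in fed and 928 to 1470 bp in fasted libraries.

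The order of these neighbouring sites was the reverse in fasted livers of that in fed replicates 1 and 2. In fed replicates 1 and 2 the strongest-rising region had 0.676 and 0.494 times the density of its neighbour, and in fed replicate 3 it had 1.25 times. In fasted replicates 1, 2 and 3 it had 2.34, 2.44 and 2.39 times. These ratios are taken within a library and so do not depend on its scaling. The 3 fasted libraries differed little in this ratio, with a mean of 2.39 ± 0.050 (SD, n = 3), against 0.807 ± 0.396 in the fed libraries.

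Weak hotspots flanked this neighbour in fasted livers. A region of 650 bp (11159531 to 11160180) was called at 7.66 in fasted replicate 1 and at 8.68 in fasted replicate 2, and in no other library. Another of 643 bp (11162580 to 11163222) was called in fasted replicate 2 only, at 10.3. A region missing from a library's list has an unknown density, so these calls show no loss or gain by themselves, and fasted replicate 2 is the deepest library.

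**Figure D3:**
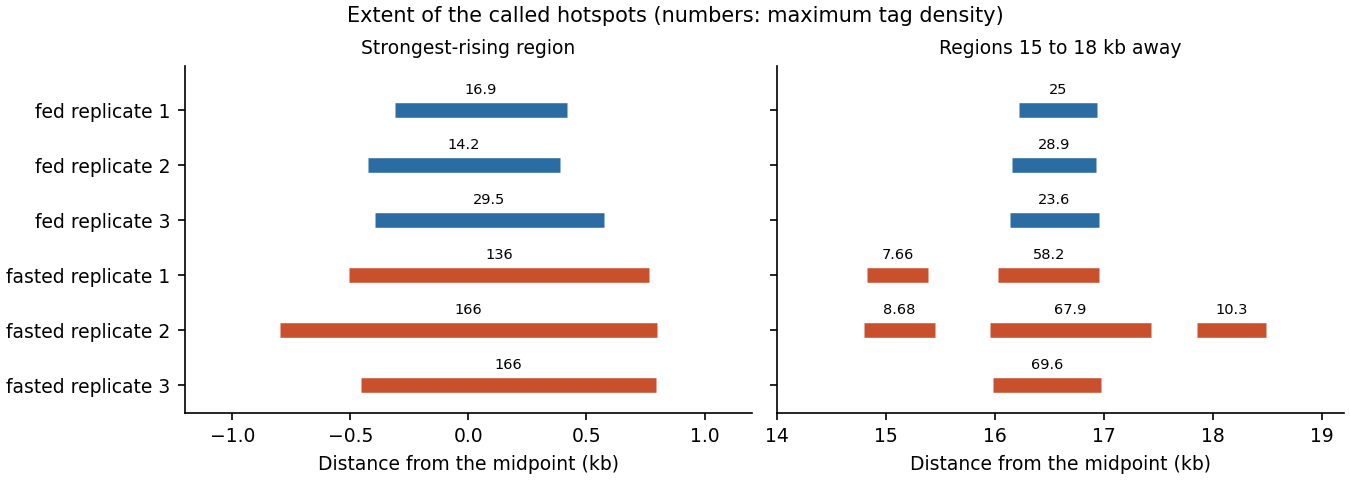
Called hotspots of each library as bars along the distance from the midpoint of the strongest-rising region (kb), at that region (left) and around its neighbour (right), with the maximum tag density above each bar. The fasted bars on the left are 1249 to 1599 bp long against 728 to 971 bp in fed libraries, and the weak hotspots on either side of the neighbour are in fasted replicates 1 and 2.

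The next risen region lies 70.2 kb from the strongest one (11214373 to 11215489). It stood at 23.5, 15.7 and 24.5 in fed replicates 1, 2 and 3, and at 39.4, 30.4 and 59.0 in fasted replicates 1, 2 and 3. The groups did not overlap, but the fasted libraries were spread widely, with replicate 3 on top. The means were 21.3 ± 4.80 and 43.0 ± 14.6 (SD, n = 3 each), and the log2 fold change was 1.03 (SE 0.22).

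The last of the risen regions is the widest region of the window, 6368 bp (11047946 to 11054313), and it lies 93.6 kb from the strongest one at lower coordinates. It was the densest of the 8 shared regions in every fed library, at 47.8, 45.3 and 37.1 in fed replicates 1, 2 and 3. In fasted replicates 1, 2 and 3 it stood at 62.4, 52.1 and 89.0. There it ranked 2, 3 and 2 among the 8, below the strongest-rising region in each library. The groups did not overlap, though fasted replicate 2 came close to the fed libraries. The means were 43.4 ± 5.62 and 67.8 ± 19.04 (SD, n = 3 each), with a log2 fold change of 0.68 (SE 0.17).

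This last rise depended on single libraries and on the measure. The region no longer passed without fed replicate 3 (log2 fold change 0.59) or without fasted replicate 3 (0.52). With the average in place of the maximum density the log2 fold change was 0.21 and the region did not pass. Each library was given the highest average among its hotspots in the region. These averages were 15.5, 12.4 and 9.41 in fed and 13.0, 10.4 and 18.1 in fasted replicates 1, 2 and 3, and the groups overlapped. In fed replicates 1 and 2 they were taken over hotspots of 1074 and 1755 bp, against 5291 to 6061 bp in the other libraries. The averages thus covered unlike lengths, and the part of this in the overlap was not tested. The called stretch was split differently between libraries, into 4, 2 and 1 hotspots in fed replicates 1, 2 and 3 and into 1, 2 and 1 in the fasted ones. In fed replicate 1 the highest point lay between 11051950 and 11053023, whereas in the undivided hotspots its place is not given.

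The other 4 shared regions did not pass, and their groups overlapped. All were weak sites, with group means between 7.25 and 15.3, below the median shared region of each library (20.9 to 25.0). The region at 11209880 to 11210689, next to the risen region at 11214373, stood at 12.1, 15.7 and 11.9 in fed and at 14.2, 15.2 and 16.6 in fasted replicates 1, 2 and 3, a log2 fold change of 0.28 (SE 0.21). The region at 11204898 to 11205606 went from 9.37 ± 1.44 to 11.9 ± 3.84 (SD, n = 3 each; log2 fold change 0.35, SE 0.23). The region that rose and this pair, which did not pass, lie within 10592 bp.

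The outermost regions of the window were weak sites as well. At its lower edge the region at 11021021 to 11021717 stood at 14.3, 10.1 and 9.38 in fed and at 5.67, 9.67 and 12.7 in fasted replicates 1, 2 and 3 (log2 fold change -0.21, SE 0.25). At its upper edge the region at 11268783 to 11269425 stood at 6.99, 9.74 and 5.04 in fed and at 8.79, 7.89 and 6.36 in fasted replicates 1, 2 and 3 (0.17, SE 0.25). The libraries of both groups were interleaved at either edge. The heights there were 19 to 49 tags, if 1 step is 1 tag.

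Besides the pair beside the neighbour, 4 regions were called in some libraries only, and they were weak too. The region at 11208886 to 11209535 was called in fed replicates 2 and 3 (7.12 and 4.58) and in fasted replicates 2 and 3 (5.72 and 10.9). Regions at 11054789 and 11222129 were called in fasted replicate 2 alone, at 5.13 and 5.92, and a region at 11057677 in fed replicate 3 alone, at 5.26. Those called in a single library, 4 of the 14, all came from the deepest library of a group, and 19.5% of all 75169 regions were called in a single library. No region of the window was called in all libraries of 1 group and in none of the other, where 1.17% of all regions were called so in fasted and 1.57% in fed livers.

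Between 11057995 and 11143932 no library had a call, a gap of 85.9 kb. On its far side the regions stand in small groups: the strongest-rising region and its neighbour are 15.2 kb apart from edge to edge, and 42.7 kb lie between that neighbour and the next shared region, the first of a cluster from 11204898 to 11215489.

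The strongest-rising region came to hold a large part of the summed maximum densities of the 8 shared regions of the window. This sum takes no account of the length of the hotspots. The region's share of it was 10.7%, 9.60% and 19.8% in fed replicates 1, 2 and 3, and 40.5%, 46.4% and 38.2% in fasted replicates 1, 2 and 3. The summed density was 152 ± 5.14 in fed and 376 ± 52.5 in fasted livers (SD, n = 3 each). Without the strongest-rising region it was 132 ± 10.7 and 220 ± 42.8.

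**Figure D4:**
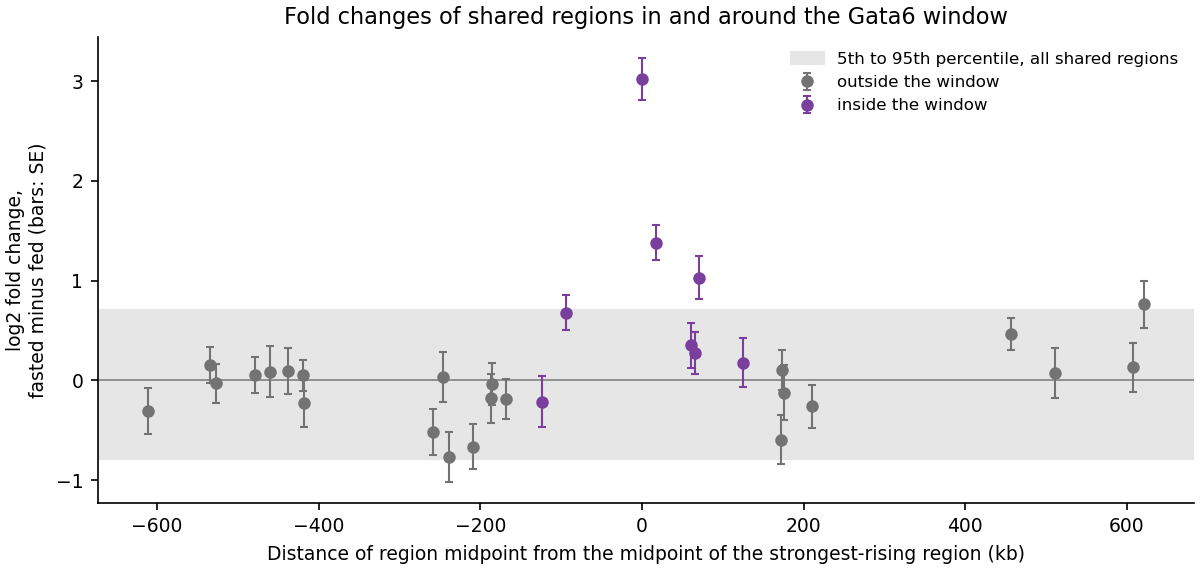
Log2 fold change (fasted minus fed, bars are the SE) of the shared regions in the window (purple) and in 500 kb on either side (grey), against the distance from the strongest-rising region in kb. The grey band runs from -0.79 to 0.71, the 5th to 95th percentile of all shared regions, and the 3 regions above it inside the window lie at 1.03 to 3.02.

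Outside the window no shared region within 500 kb reached a log2 fold change of 1 in either direction. In the 500 kb before it lay 15 shared regions, with log2 fold changes of -0.77 to 0.15, of which 0 rose and 2 fell. Those that fell lie at 10904991 (from 19.6 ± 5.67 to 10.4 ± 2.67, log2 fold change -0.77) and at 10935476 (from 9.15 ± 1.78 to 5.08 ± 1.07, -0.67; SD, n = 3 each). In the 500 kb after it lay 8 shared regions, with log2 fold changes of -0.60 to 0.76, of which 1 rose and 0 fell. The region that rose is a weak site at 11764965 (from 5.05 ± 1.48 to 8.59 ± 0.457). Over all 37044 shared regions, 7.89% rose and 7.84% fell at the same threshold. The shared regions just outside the window, at 10976059 and 11316202, had log2 fold changes of -0.19 and -0.60 and did not pass. The fold changes of the window were not tested against those of its surroundings.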

How the data were processed

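DNase I hypersensitivity was measured in 6 liver libraries, with fragments of 100 to 500 bp purified, per the labels' protocols. The submitters' processing notes name CASAVA 1.8 and mm9; for the aligner and the hotspot caller the sources used here give no name. Per the file headers, each list gives the maximum and average tag density of each hotspot as the authors computed it, a coverage signal whose scale is not stated. Per the file headers the authors also computed a z-score and a p-value for each hotspot in its own library; the z-score (a score of their own) and the p-value, as deposited, entered no comparison here.

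Hotspots on chromosomes 1 to 19 and X were merged across libraries (overlap of at least 1 bp), and a region took the highest maximum density of its hotspots. Regions called in all libraries were fitted in R 4.3.3 with limma 3.58.1 (trended eBayes, no block) on log2(density + 1), centred on each library's median over these regions, with Benjamini-Hochberg adjustment over all of them (threshold 0.05). The fit was tested on simulated data. Steps were found within 0.05 step for 100% of maxima. Alternatives were pseudocounts of 0.1 and 10, no centring, quantile normalization, average density, the upper 50% of regions, filled missing values, the replicate block, merging within 150 bp, equal lists and leaving out each replicate. Tables and plots used Python 3.11.15.

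The window and the rules were chosen with earlier results of these data known. Every region of the window is named or counted, the shared ones with values. Lists of genes were planned but are not analysed here.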

Additional observations from a re-analysis of the deposited data

How the results depend on the processing

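The log2 fold change of the strongest-rising region was 2.82 to 3.33 on leaving out each replicate, and 2.54 with a pseudocount of 10, which shrinks fold changes by construction; the other 8 settings gave 2.71 to 3.08. The 4 risen regions of the window became 3 with average density and without fed replicate 3 or fasted replicate 3, each time by the loss of the widest region, and 0 regions fell in any of the 15 settings. Over all 37044 shared regions, those higher in fasted livers went from 2921 to 1946 with no centring (lower: 3189 in place of 2905). With only the denser 50% of regions, 18522 in number, 1934 were higher and 1289 lower, so the balance shifted towards rises. The number higher ranged from 1911 to 3199 when each replicate was left out, the lowest without fasted replicate 1. The number of regions of the window called in all libraries of 1 group only was 0 to 1 on leaving out each replicate; the 1 was the region at 11159531, without fasted replicate 3, since fewer libraries must agree. Deviations of libraries that share a replicate number from their group means correlated at -0.067, -0.030 and -0.167, which gives no sign of pairing, and with the replicate block 4 regions of the window rose, and 2535 of all shared regions rose and 2539 fell. The 4 shared regions of the window that did not pass reached 19 to 77 tags, and how far depth decided which weak regions passed was not tested.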

Other observations

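At the region from 11209880 to 11210689, picked out after its values were seen, the called stretch was shorter in fasted livers although its density was not lower. It was 741, 774 and 807 bp long in fed replicates 1, 2 and 3, and 631, 661 and 658 bp in fasted replicates 1, 2 and 3. The difference lay at the higher end, which was at 11210650 to 11210689 in fed and at 11210510 to 11210551 in fasted libraries, at least 99 bp apart. At the lower end the hotspots of both groups began at 11209880 to 11209910. No test was made of this difference.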
